A study of Mus musculus with 6 samples.

Results

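The piRNA pathway genes described here are 10 genes chosen by name: Mael, Tdrd1, Mov10l1, Asz1, Piwil2, Piwil4, Tdrd9, Ddx4, Tdrkh and Fkbp6. All 10 were found among the 33924 gene symbols of the count tables. RNA of the mouse embryonic stem cell line E14 was sequenced in 3 libraries labelled control (WT) and 3 libraries labelled Rif1-KO, to ask what loss of Rif1, a chromatin and replication timing protein, does to gene expression. The labels give all 6 libraries the same culture on 0.1% gelatin in 2i medium, which holds stem cells in naive pluripotency through kinase inhibitors, and the same exposure to 0.1 µM 4-hydroxytamoxifen for 2 days followed by 1 day without it. The file headers, however, name 2i only for control and TAM only for libraries labelled Rif1-KO, so a difference in drug or medium between the groups cannot be told apart from the loss of Rif1. Which part of Rif1 was deleted, and in how many clones, is not given in the sources used here. No label says whether replicates came from separate cultures, and the p-values therefore cover the spread between these libraries alone, which may be technical.

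PIWI-interacting RNAs (piRNAs) are small RNAs of the germline that guide PIWI proteins to transposon transcripts. Cytoplasmic PIWI proteins cut those transcripts and thereby make further piRNAs, and in fetal male germ cells a nuclear PIWI protein directs DNA methylation to transposon copies. Helicases, Tudor domain proteins, which bind methylated arginines of PIWI proteins, and mitochondrial scaffold proteins build and load the piRNAs in cytoplasmic granules next to mitochondria. Outside the germline many of these genes are held silent, often with methylated CpG-rich promoters, and repressor complexes with MGA and MAX, which bind the E-box sequence CACGTG, occupy promoters of many germline genes in embryonic stem cells.

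Promoter sequences are shown for that reason: 6 of the 9 members with an entry in the RefSeq promoter table (build GRCm38.p6) held CACGTG in the window from 250 bases before to 50 bases after the transcription start. These were Mael, Tdrd1, Mov10l1, Ddx4, Tdrd9 and Fkbp6, and the last 2 held it at 2 places each. The motif reads the same on both strands. Of all 27025 genes with such a window, 7.24% held it, and 0.625% held it at 2 or more places. Among the 12689 genes with a CpG ratio at least as high as the lowest member's, these shares were 10.8% and 1.17%. The stretches below run 5′ to 3′ on the gene's strand, capitals mark CACGTG, and bases inside annotated exons were left out except at the Ddx4 site, which lies in an exon of another transcript model. Asz1, which had the largest fold change of the 10, is given for comparison and holds no match in its window.
Ddx4, chr13:112652322-112652351, minus strand: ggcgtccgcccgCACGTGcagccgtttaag
Tdrd1, chr19:56826158-56826208, plus strand: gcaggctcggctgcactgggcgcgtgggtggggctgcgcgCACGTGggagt
Mael, chr1:166238922-166238994, minus strand: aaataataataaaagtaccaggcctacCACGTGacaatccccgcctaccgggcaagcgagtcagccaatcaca
Mov10l1, chr15:88982744-88982793, plus strand: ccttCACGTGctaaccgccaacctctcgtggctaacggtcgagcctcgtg
Tdrd9, chr12:111971354-111971509, plus strand: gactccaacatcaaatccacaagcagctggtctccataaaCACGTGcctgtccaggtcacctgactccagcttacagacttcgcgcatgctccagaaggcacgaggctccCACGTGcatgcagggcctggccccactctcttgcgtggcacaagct
Fkbp6, chr5:135350045-135350185, minus strand: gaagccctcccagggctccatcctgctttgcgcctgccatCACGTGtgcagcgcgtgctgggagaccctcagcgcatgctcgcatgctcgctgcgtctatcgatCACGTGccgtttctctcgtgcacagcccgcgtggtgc
Asz1, chr6:18109062-18109211, minus strand: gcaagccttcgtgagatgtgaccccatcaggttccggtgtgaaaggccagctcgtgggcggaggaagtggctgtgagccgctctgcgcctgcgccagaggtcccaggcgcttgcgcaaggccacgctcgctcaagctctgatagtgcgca

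The motif began 11 bases before the start in Tdrd1, 29 in Ddx4, 223 in Mael and 246 in Mov10l1. In Fkbp6 it began 101 and 37 bases before the start, and in Tdrd9 165 and 95 bases before it. Only the first window listed for each gene was searched, while Tdrd1 has 3 windows and Piwil4 and Fkbp6 have 2 each. Windows with the motif belonged to 3 genes that rose, 2 that fell and 1 that did not pass, where 26.1% of all tested genes rose and 24.8% fell. Whether a match goes with the call was not tested. A second motif, GCGGGA, a core of E2F sites, was searched on both strands. It shared no base with a CACGTG match in these windows and was found in Mael and Ddx4 alone, against 20.0% of all windows and 37.8% of those with a CpG ratio at least as high as the lowest member's. By median the 9 windows held more CpG than all windows, with 20 CpG dinucleotides per 300 bases against 7. Their median ratio of observed to expected CpG was 0.780 against 0.389. The 12689 genes with a ratio at least as high as the lowest member's had medians of 21 and 0.773. Among the 9, Ddx4 had the most, with 38 CpG and a ratio of 0.978. Tdrd9, with 10 and 0.430, and Piwil4, with 11 and 0.54, had the fewest. A match in these letters is a description and not a measured binding site, and methylation was not measured in these libraries.

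**Figure D1:**
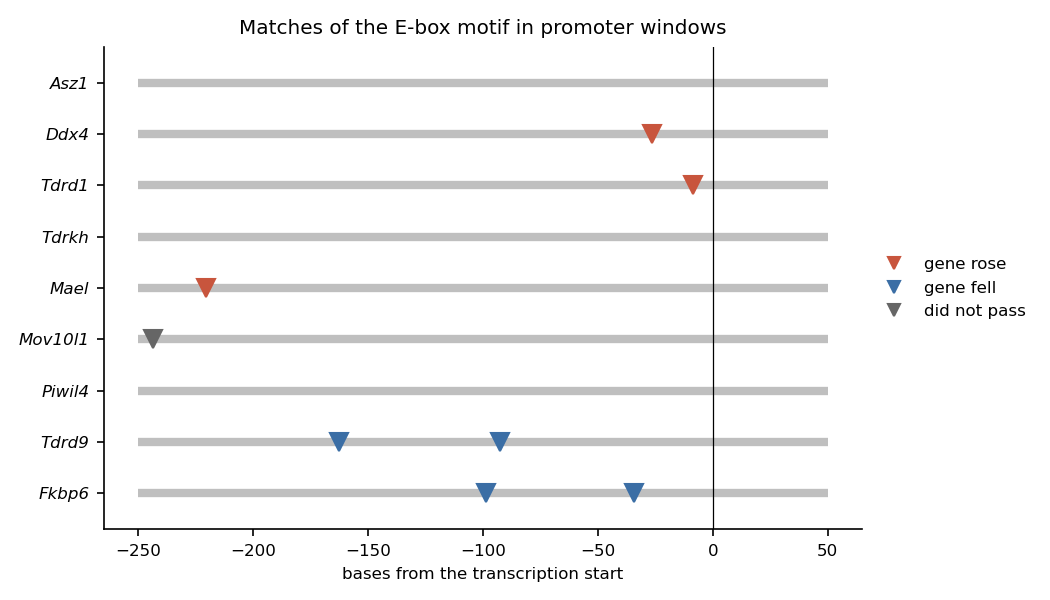
Position of the 6-base E-box motif in the promoter windows of 9 members, in bases from the transcription start (x axis), with genes ordered from the largest rise at the top to the largest fall. Triangles mark matches and their colour gives the call of the gene. Tdrd9 and Fkbp6 hold 2 matches each, and Asz1, Tdrkh and Piwil4 hold none in the first window listed. Whether the number of matches goes with the call was not tested.

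Across the 10 members libraries labelled Rif1-KO showed a mixed shift, weighted to increases. Asz1, Ddx4, Tdrd1, Tdrkh, Piwil2 and Mael rose, by 10.9-fold to 1.28-fold in mean CPM, Fkbp6 and Tdrd9 fell, and Mov10l1 and Piwil4 did not pass. CPM (counts per 1000000) is a deposited count divided by the library's total over the tested genes and by its TMM factor, edgeR's scaling between libraries. Rose and fell are used for genes below an adjusted p of 0.05 (edgeR's quasi-likelihood test, Benjamini-Hochberg adjustment across 14250 genes), every adjusted p below comes from that test, and fold changes have control in the denominator. Of the 10 members, 6 rose, where 26.1% of all tested genes rose, and 2 fell, where 24.8% of all tested genes fell. The CPM ranges of the groups did not overlap for the same 8 genes, 6 higher and 2 lower, against 29.4% and 27.8% of all tested genes. The median log2 fold change of the 10 was 0.56, beside 0.003 over all tested genes. All 10 passed the filter on low counts, but Asz1 did so only through libraries labelled Rif1-KO, which fixed its direction. Without it 5 of 9 rose, and the median log2 fold change was that of Mael, 0.36.

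**Figure D2:**
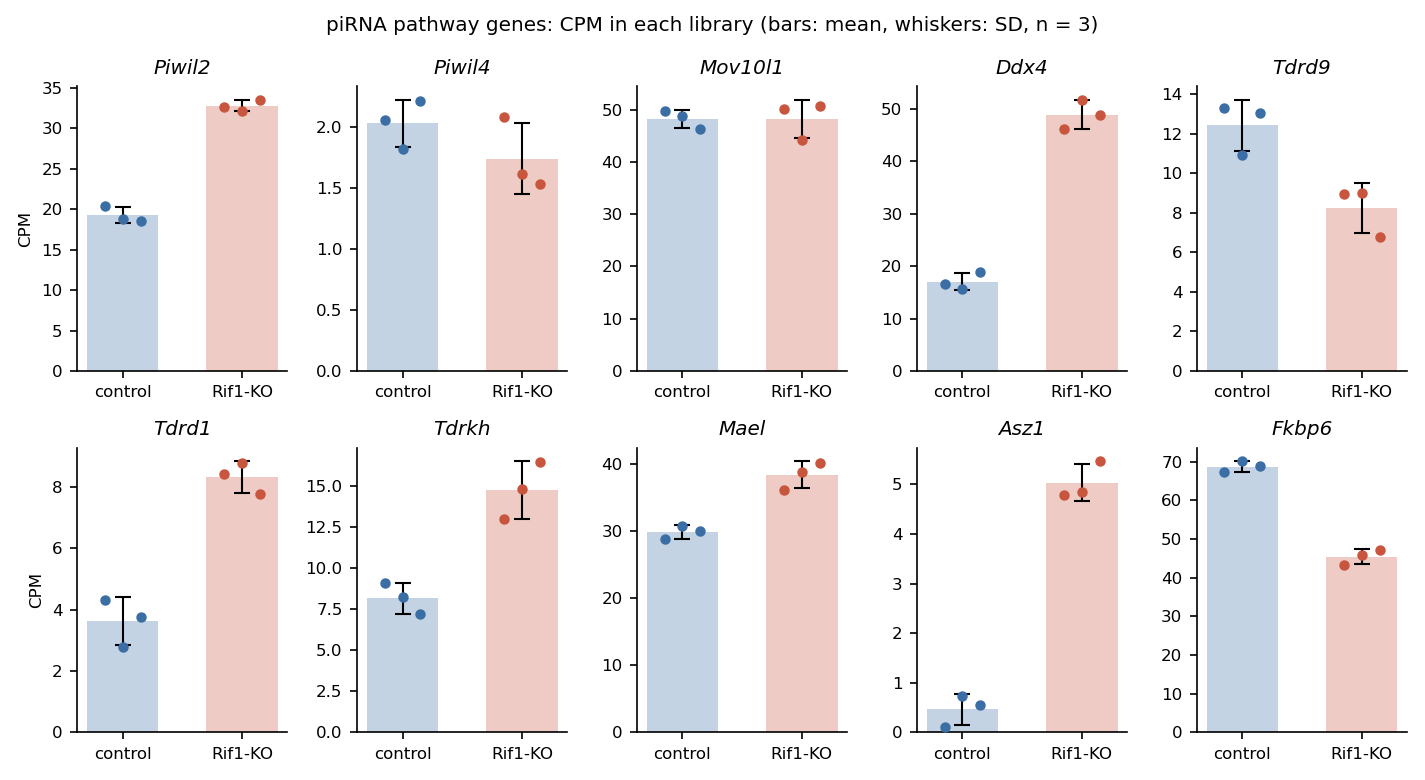
CPM (y axis, each panel on its own scale from 0) of the 10 members in the 3 control and 3 Rif1-KO libraries; points are libraries, bars are means and whiskers are SD. The groups are separate in 8 panels and overlap for Piwil4 and Mov10l1.

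The targeted gene was read at 657 to 700.1 CPM in control and at 602 to 664 CPM in libraries labelled Rif1-KO (adjusted p = 0.0509), and a count over the whole gene does not check a deletion of some exons. Library totals ran from 8383632 to 10980777 counts, and Rif1-KO replicate 1 was the deepest. The correlation of log CPM across genes was 0.993 to 0.995 within groups and 0.968 to 0.969 between them. Of 9 embryonic stem cell markers all were tested, 5 rose, 1 fell and 3 did not pass, where 26.1% of all tested genes rose and 24.8% fell. The fall was that of Sox2, from 683 ± 31.8 to 469 ± 19.4 CPM (SD, n = 3, adjusted p = 1.78e-08). The 9 summed to 5805 to 6220 CPM in control and to 6438 to 6770 CPM in libraries labelled Rif1-KO. Both groups thus carry the markers of the labelled cell type, though not at equal levels. Of 16 two-cell-like markers in the tables, 12 were tested and all 12 rose, but the filter kept them for their Rif1-KO counts alone. The 16 summed to 0.757 to 0.972 CPM in control and to 55.9 to 61.0 CPM in libraries labelled Rif1-KO. Their part in the results on piRNA genes was not tested, and in bulk RNA more cells of a type and more RNA per cell cannot be told apart.

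Male germ cell markers moved in both directions, as the members did. Of 14 such markers, 7 were tested, 4 rose, 2 fell and 1 did not pass, where 26.1% of all tested genes rose and 24.8% fell. The 4 that rose were Sycp2, Sycp1, Gfra1 and Sycp3 (log2 fold changes 1.61, 0.70, 0.94 and 0.20). The 14 summed to 117.5 to 122.3 CPM in control and to 130.6 to 135.0 CPM in libraries labelled Rif1-KO. Sycp2, a part of the synaptonemal complex of meiosis, rose from 5.25 ± 0.335 to 16.1 ± 1.34 CPM (SD, n = 3), while Stra8, which acts at the entry into meiosis, fell from 6.18 ± 0.173 to 2.40 ± 0.484 CPM and Dmrt1, a transcription factor of the testis, from 33.1 ± 1.84 to 16.8 ± 0.763 CPM, 3 genes picked out after their values were seen. The genes that define sperm formation were at or near 0: Prm2 and Tnp1 had no count in any library, and Prm1, Tnp2 and Acrv1 were at most at 0.271 CPM in any library. Zbtb16, a further male marker too low to be tested, was picked out after its values were seen. It was lower in every library labelled Rif1-KO than in any control library, with 25 counts over control and 5 over libraries labelled Rif1-KO. Of 9 oocyte markers, only Zp3 was tested, and it fell. Nobox and Figla, transcription factors of oocytes picked out after their values were seen, were too low to be tested but were higher in every library labelled Rif1-KO than in any control library, with 3 and 26 counts over the groups for Nobox and 6 and 22 for Figla. The list summed to 1.84 to 3.04 CPM in control and 2.41 to 3.84 CPM in libraries labelled Rif1-KO, with Zp2 and Oosp1 at 0 throughout.

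The PIWI proteins themselves, the Argonaute relatives that bind piRNAs, behaved differently from each other. Piwil2 (MILI), the cytoplasmic PIWI protein that cuts transposon transcripts, stood at 20.4, 18.8 and 18.6 CPM in control and at 32.7, 32.2 and 33.6 CPM in libraries labelled Rif1-KO. Every library of the latter group lay above every control library, and the spread within each group was small. The means were 19.3 ± 1.01 and 32.8 ± 0.685 CPM (SD, n = 3), with a log2 fold change of 0.77 ± 0.08 (SE, adjusted p = 1.67e-07). Piwil4 (MIWI2), the nuclear PIWI protein tied to transposon methylation, was barely read, at 2.05, 1.82 and 2.21 CPM in control and 2.08, 1.62 and 1.53 CPM in libraries labelled Rif1-KO. Its groups overlapped, and the log2 fold change of −0.21 had a 95% interval from −0.75 to 0.34 (adjusted p = 0.546). At 54 and 53 counts per group a change of the size seen for Piwil2, whose interval ran from 0.60 to 0.93, lay outside that interval. The third mouse PIWI gene, Piwil1 (MIWI), is no member and was picked out after its values were seen. It rose from 1.80 ± 0.320 to 3.85 ± 0.0754 CPM (1.08 ± 0.22 on the log2 scale, adjusted p = 0.000424).

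The 3 helicases split in 3 ways. Ddx4, the mouse relative of Vasa and a germ cell marker that works in the amplification of piRNAs, was read at 16.5, 15.7 and 18.9 CPM in control and at 46.2, 51.8 and 48.8 CPM in libraries labelled Rif1-KO. The lowest of the latter lay far above the highest control library. The means were 17.04 ± 1.68 and 48.9 ± 2.82 CPM, 2.87-fold higher, with a log2 fold change of 1.52 ± 0.08 (adjusted p = 1.67e-11), the smallest adjusted p among the 10. Tdrd9, which joins a helicase to a Tudor domain and partners MIWI2, went the other way, with 13.3, 10.9 and 13.1 CPM in control and 8.95, 8.99 and 6.78 CPM in libraries labelled Rif1-KO. Its groups were separate, but control replicate 2 and the 2 higher Rif1-KO libraries stood close together. The log2 fold change was −0.59 ± 0.14 (adjusted p = 0.00114). Mov10l1, the helicase that feeds piRNA precursor transcripts into processing, was read at 49.7, 48.7 and 46.2 CPM in control and 50.1, 44.1 and 50.8 CPM in libraries labelled Rif1-KO. The groups covered the same range, with a log2 fold change of 0.003 whose 95% interval ran from −0.14 to 0.15 (adjusted p = 0.978), and its sign turned with the scaling.

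Both Tudor domain members rose. Tdrd1, which binds the methylated arginines of MILI, was read at 4.33, 2.79 and 3.76 CPM in control and 8.41, 8.79 and 7.77 CPM in libraries labelled Rif1-KO. The groups were separate although control replicate 2 was low within its group. The means were 3.63 ± 0.774 and 8.32 ± 0.517 CPM, with a log2 fold change of 1.19 ± 0.17 (adjusted p = 7.97e-06). Tdrkh (TDRD2), a mitochondrial protein that helps trim the ends of piRNAs, was read at 9.08, 8.26 and 7.19 CPM in control and 13.01, 14.9 and 16.5 CPM in libraries labelled Rif1-KO. Again no library of one group reached the other, and the log2 fold change was 0.85 ± 0.13 (adjusted p = 1.98e-05). This gene needs care: 2255 of its 6142 exon bases are overlapped on the opposite strand by Oaz3, an antizyme gene of the testis. Of its 50-base stretches, 34.7% occur in another gene's transcripts when read on either strand, a share that includes the overlap with Oaz3. Whether the authors counted by strand is not given in the sources used here, so reads of the pair cannot be told apart. Oaz3's own row held 14 counts over the control libraries and 28 over libraries labelled Rif1-KO. For the remaining members at most 1.64% of such stretches were shared, the highest share being Piwil4's.

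Among the other members, 2 rose and 1 fell. Asz1 (GASZ), a scaffold on the mitochondrial surface that holds piRNA granules together, was read at 1, 6 and 5 counts in the control libraries, or 0.108, 0.729 and 0.553 CPM, and at 53, 48 and 50 counts in libraries labelled Rif1-KO, or 4.79, 4.85 and 5.47 CPM. It was close to silent in control and clearly read in all 3 libraries labelled Rif1-KO. The log2 fold change was 3.43 ± 0.33, with a 95% interval from 2.75 to 4.12 (adjusted p = 4.29e-08), and the 12 control counts limit how well its size is known. Mael, an HMG-box protein of the granules needed for transposon silencing, was read at 28.9, 30.9 and 30.1 CPM in control and 36.2, 38.9 and 40.3 CPM in libraries labelled Rif1-KO. Its rise was the smallest of the 6, from 29.9 ± 1.004 to 38.5 ± 2.04 CPM (0.36 ± 0.07 on the log2 scale, adjusted p = 0.000381), with no overlap between groups. Fkbp6, a co-chaperone of HSP90 needed to make secondary piRNAs, was read at 67.3, 70.1 and 68.8 CPM in control and 43.2, 46.0 and 47.0 CPM in libraries labelled Rif1-KO. All 3 of the latter lay well below control, with a log2 fold change of −0.60 ± 0.06 (adjusted p = 7.71e-08).

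**Figure D3:**
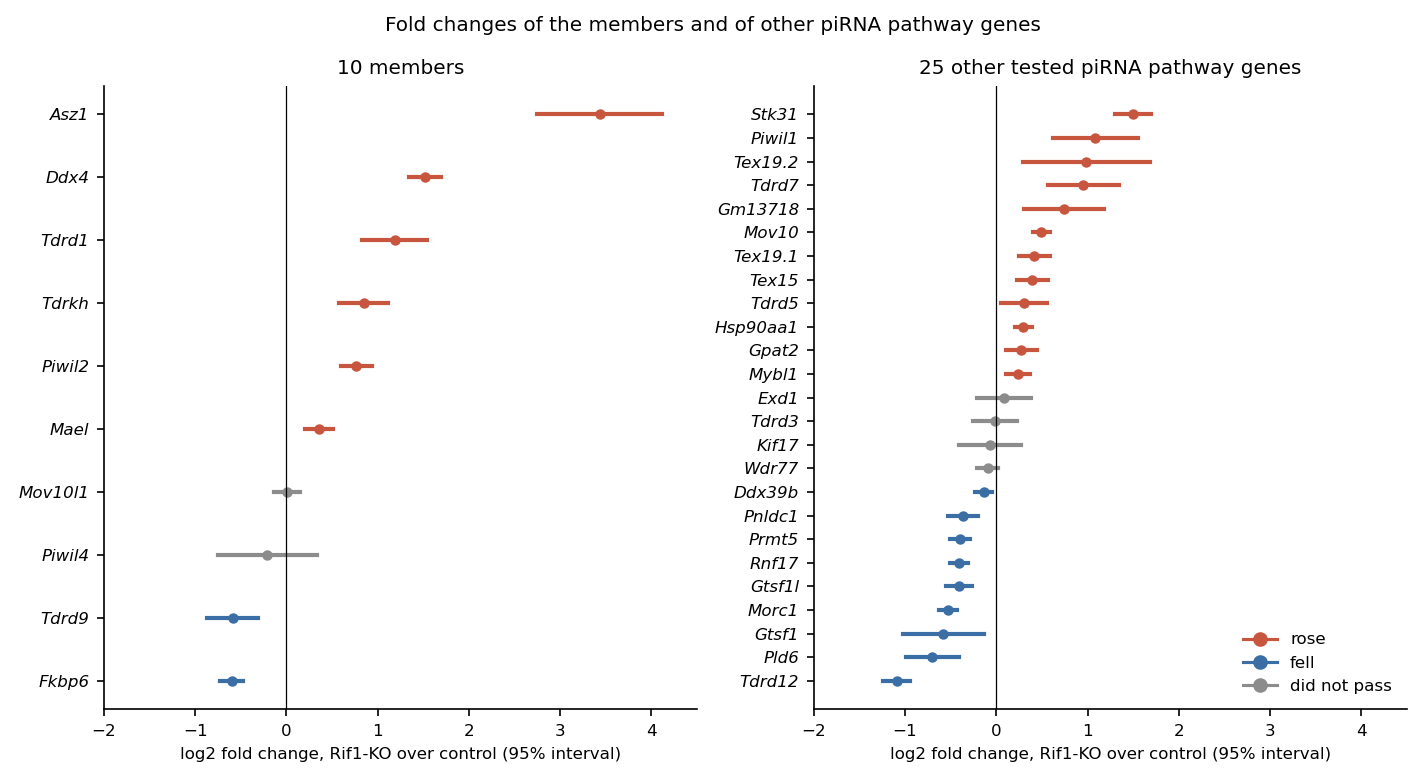
Log2 fold changes with 95% intervals (x axis) of the 10 members (left) and of 25 other tested piRNA pathway genes (right), coloured by call. Members run from Asz1 at 3.43 to Fkbp6 at −0.60, and the other genes from Stk31 at 1.50 to Tdrd12 at −1.09.

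Divided by the kilobases of annotated exon (RPKM), which allows levels of different genes to be set side by side, the members lay far apart in control. Fkbp6 was the highest, at 39.2 ± 0.815 RPKM, followed by Mael at 17.3 ± 0.580, Mov10l1 at 11.5 ± 0.430, Ddx4 at 5.66 ± 0.557 and Piwil2 at 3.65 ± 0.190 RPKM (SD, n = 3). Tdrd9 at 2.30, Tdrkh at 1.33, Tdrd1 at 0.666, Piwil4 at 0.377 and Asz1 at 0.164 RPKM made up the lower end. In control no library of a gene reached those of the next gene in this order. In libraries labelled Rif1-KO the span narrowed. Fkbp6 stayed first, at 25.9 ± 1.13 RPKM, Mael stayed second, at 22.2 ± 1.18 RPKM, and Ddx4, at 16.2 ± 0.936 RPKM, passed Mov10l1. Asz1 moved from the last place to the seventh, at 1.78 ± 0.133 RPKM, and Piwil4 became the last, at 0.323 ± 0.0547 RPKM. There, Tdrd1 and Tdrd9 did not differ beyond their ranges. The sum over the 10 genes was 81.4, 82.7 and 82.3 RPKM in control and higher, at 86.4, 90.2 and 92.3 RPKM, in libraries labelled Rif1-KO. In CPM, not divided by length, the sum was 208.7 to 211.7 in control and 245.6 to 258.4 in libraries labelled Rif1-KO. The makeup of the RPKM sum did not stay the same. Fkbp6 gave 47.1% to 48.4% of it in control and 28.5% to 29.1% in libraries labelled Rif1-KO, and Ddx4 6.29% to 7.62% and 17.5% to 19.06%. Exon lengths come from another annotation than the one used for counting, so the order rests on that model, while a gene's own change does not.

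**Figure D4:**
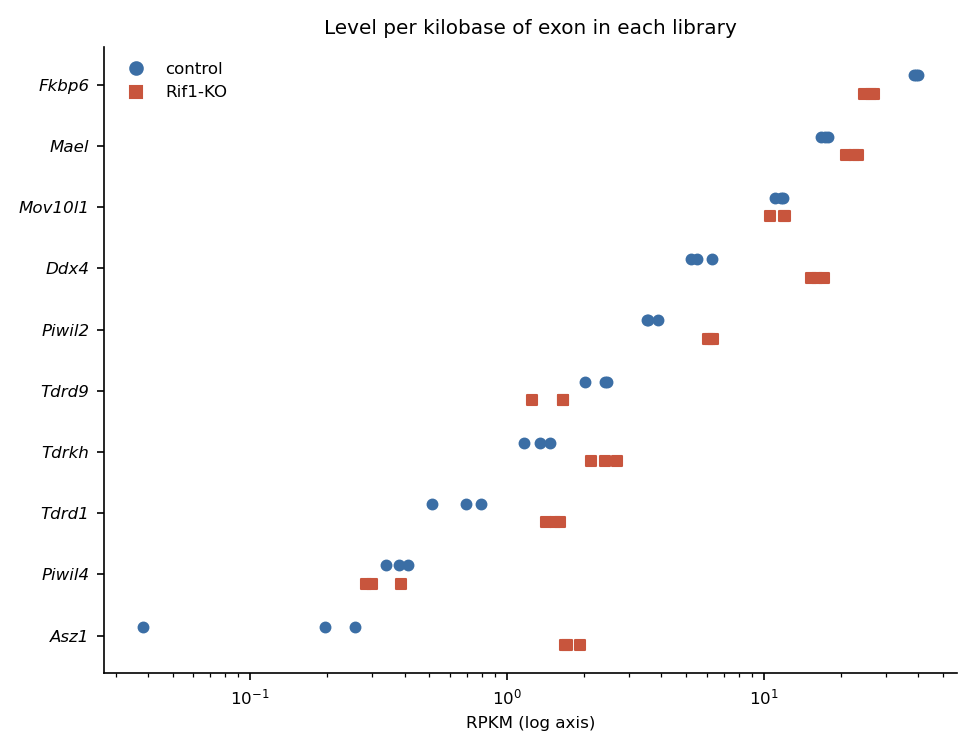
Level per kilobase of exon (RPKM, log axis) of the 10 members in each library, ordered by control level; circles are control and squares Rif1-KO libraries. Asz1 shows the widest gap between groups, and Ddx4 lies above Mov10l1 only in libraries labelled Rif1-KO.

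Other genes of the pathway, taken from a list of 30, moved in both directions. Of these, 29 were found, 25 were tested, 12 rose, 9 fell and 4 did not pass, and their median log2 fold change was 0.09, beside 26.1% and 24.8% of all tested genes that rose and fell. One of the 12, Tex19.2, passed the filter on low counts only through libraries labelled Rif1-KO, which fixed its direction. The calls of 7 of these genes (Tdrd5, Gtsf1, Gpat2, Tex19.2, Ddx39b, Mybl1 and Btbd18) were lost under at least 1 alternative, and leaving out any of the 6 libraries ended at least 1 of them: 9 rose with DESeq2 and without control replicate 2, and 7 fell without control replicate 3. Henmt1, which protects piRNA ends by methylation and is listed as 4921515J06Rik, Spocd1, Tdrd6 and Nanos2 were too low to be tested, each with at most 0.542 CPM in any library. The largest rise was that of Stk31, a Tudor domain kinase of germ cells, at 13.3 ± 0.216 and 37.5 ± 3.63 CPM (log2 fold change 1.50 ± 0.09, adjusted p = 9.39e-11). Mov10, the widely expressed relative of Mov10l1, rose from 257 ± 9.99 to 362 ± 6.38 CPM, a gain not shared by Mov10l1, whose 95% interval lay below Mov10's 0.40 to 0.59. The chaperone gene Hsp90aa1, whose protein works with FKBP6, rose by 0.29 ± 0.05 on the log2 scale while Fkbp6 fell.

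Among the 8 other pathway genes with the smallest adjusted p, 5 fell: Tdrd12, Morc1, Rnf17, Prmt5 and Gtsf1l. Tdrd12, a Tudor domain helicase of secondary piRNA production, went from 53.9 ± 1.61 to 25.3 ± 1.43 CPM (−1.09 ± 0.07 on the log2 scale, adjusted p = 1.52e-10), so that of the 2 Tudor domain helicases Tdrd9 and Tdrd12 both were lower. Morc1, a nuclear factor of transposon silencing in male germ cells, went from 201 ± 5.48 to 139 ± 2.05 CPM. Rnf17, a Tudor domain protein that restrains piRNA amplification, fell by 0.41 ± 0.05 on the log2 scale, Prmt5, the enzyme that methylates the arginines read by Tudor domains, by 0.40 ± 0.05, and Gtsf1l, a relative of the PIWI cofactor Gtsf1, by 0.41 ± 0.07. Wdr77, the partner of PRMT5 (log2 fold change −0.09, adjusted p = 0.176), and Tdrd3 (−0.02, adjusted p = 0.913) had the highest mean CPM among the 4 that did not pass. Wdr77 did pass, as lower, without control replicate 2 (adjusted p = 0.0344) and with an offset for GC content and length (0.0418).

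Genes that set or remove DNA methylation and genes that repress germline promoters fell more often than they rose. Among all tested genes, 24.8% fell and 26.1% rose. Of 10 DNA methylation genes 1 rose, 7 fell and 2 did not pass: Dnmt3l, the cofactor of de novo methylation, rose by 2.02 ± 0.08 on the log2 scale, and Dnmt1, Hells and Tet1 were the falls with the smallest adjusted p, by 0.49 ± 0.05, 0.36 ± 0.05 and 0.43 ± 0.05. Of 13 repressors none rose, 7 fell and 6 did not pass, and the falls with the smallest adjusted p were those of Trim28 (−0.47 ± 0.05), Hdac1 (−0.38 ± 0.05), Cbx3 (−0.38 ± 0.06) and L3mbtl2 (−0.30 ± 0.05). The pair that binds CACGTG, picked out for that, fell too, Max by 0.35 ± 0.06 (adjusted p = 7.26e-05) and Mga by 0.13 ± 0.05 (adjusted p = 0.0462). The falls of Mga and Ehmt1 did not pass without control replicate 3 (0.161 and 0.120), Rif1-KO replicate 1 (0.152 and 0.0818) or replicate 2 of the knockout (0.244 and 0.0765), nor Mga without control replicate 2 (0.0681). Among the methylation genes Dnmt3a and Tet2 did not pass without control replicate 3 (0.158 and 0.119) or Rif1-KO replicate 2 (0.170 and 0.113), nor Tet2 without control replicate 2 (0.0553) or Rif1-KO replicate 1 (0.118). Tool and scaling mattered too: Dnmt3a and Ehmt1 did not pass with DESeq2 (its adjusted p 0.123 and 0.0844), nor Dnmt3a and Mga with scaling by library totals alone (0.0556 and 0.0675). Whether these bear on the piRNA genes was not tested.

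Genes next to the members on the chromosome were set beside them. Of the 20 nearest neighbours in the tables, 11 were tested, 4 rose, 2 fell and 5 did not pass, beside 26.1% and 24.8% of all tested genes that rose and fell, and the 9 untested ones had at most 1.02 CPM on average in control. Beside Ddx4, Slc38a9 rose by 0.33 ± 0.08 on the log2 scale, against 1.52 for Ddx4, while Il31ra on the other side had 3 counts over each group. Aspg, beside Tdrd9, fell by 0.32 ± 0.08, and 2010107E04Rik on its other side rose by 0.20 ± 0.07. A630007B06Rik beside Tdrd1 rose by 0.21 ± 0.06, Amotl1 beside Piwil4 by 0.25 ± 0.06, and Gpa33 beside Mael fell by 0.17 ± 0.05. Asz1 lay between Wnt2, with no count in any library, and Gm15593, with 3 and 4 counts over the groups. Among the called neighbours, 2010107E04Rik did not pass when control replicate 2 (adjusted p = 0.0782) or control replicate 3 (0.136) was left out, nor when replicate 1 (0.193) or replicate 2 (0.0696) of the knockout was. Gpa33 did not pass without Rif1-KO replicate 2 (0.0669). With an offset for GC content and length, neither Gpa33 (0.139) nor A630007B06Rik (0.103) passed. Called neighbours of called members went in the member's direction in 3 cases and against it in 2.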

How the data were processed

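The deposited files are the authors' raw counts, a file for each library, not normalized. STAR, featureCounts 1.6.2 and R, with its version given as 3.28.1, are named in the submitters' processing notes, as is the mouse build mm9. The annotation, strand setting and handling of multiply mapped reads were not stated there. Counts were fitted with edgeR 4.0.16 in R 4.3.3 (filterByExpr, TMM scaling, quasi-likelihood test, group as the only term, all 6 libraries), which was tested on simulated data. DESeq2 1.42.0 and limma 3.58.1 were alternatives. Lengths, overlaps and shared 50-base stretches came from GENCODE M21 on GRCm38, promoters from RefSeq on GRCm38.p6 (the first window listed per gene; Piwil2 not matched), and neither build's coordinates were joined to the counts. Older symbols were matched through RefSeq synonyms. The members and lists were chosen with earlier results of these data known. Named were all members, the 8 other pathway genes with the smallest adjusted p, the 2 highest that did not pass, up to 4 regulators per list and called neighbours. Alternatives covered scaling, filter, tool, left-out libraries, a replicate block and a GC content and length offset. With 3 libraries per group, precision at low counts is limited.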

Additional observations from a re-analysis of the deposited data

How the results depend on the processing

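All 8 calls among the members kept their direction and their side of the threshold under all 16 alternatives, with the highest adjusted p at 0.00733 (Tdrd9); Piwil4 and Mov10l1 passed in none. The log2 fold change of Asz1 ran from 2.95 without control replicate 1 to 3.88 without control replicate 2. Mov10l1, which lies at 0, turned its sign under median-of-ratios scaling (−0.0017), with every gene with a count kept (−0.00079), with at least 1 CPM in 3 libraries (−0.0027) and with DESeq2 (−0.0075), and over the left-out libraries it ran from −0.031 to 0.062. Over the left-out libraries Tdrd3 ran from −0.104 to 0.053, and turned in 3 of 6. Calls outside the members were less stable. Of the other pathway genes 9 to 12 rose and 7 to 9 fell over the alternatives, of the DNA methylation genes 5 to 7 fell, and of the repressors 5 to 7. Among neighbours, 2010107E04Rik did not pass with DESeq2 (adjusted p = 0.135) or in 4 of 6 fits with a library left out, A630007B06Rik (log2 fold change 0.10) and Gpa33 (log2 fold change −0.09) did not pass with the GC content and length offset, and Gpa33 did not without Rif1-KO replicate 2 (log2 fold change −0.13). Replicate numbers did not pair the libraries (correlations of same-numbered deviations 0.0793, −0.0646 and 0.0461), and with the replicate block 6 members rose and 2 fell as before. Depth limits Piwil4 and the control level of Asz1.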
